A study of Mus musculus with 12 samples.

Results

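The transcripts of 10 regulators of pre-mRNA splicing in the heart were followed in mouse hearts under pressure overload and with overexpression of cardiac ISL1-interacting protein (CIP). The 10 genes were Rbm20, Rbm24, Rbfox1, Rbfox2, Mbnl1, Mbnl2, Celf1, Celf2, Srsf1 and Ptbp1, taken as the entries whose gene symbol matches these names among the 53882 entries of the table of normalized counts. Of them, 8 had values. Celf1 and Srsf1 stood at 0 in all 12 libraries, each on 2 identical lines of the table, and all 1243 lines that occurred as exact duplicates were at 0. Both genes are used by most cells, so their 0 was taken as a missing measurement and no difference was computed for them.

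A splicing regulator binds short sequences in a pre-mRNA and promotes or blocks the use of an exon nearby. Rbfox proteins recognize the letters GCAUG, while muscleblind proteins (Mbnl) and CELF proteins act in opposite directions on many of the same exons during the postnatal change from fetal to adult heart isoforms. RBM20 sets the isoforms of titin and of calcium-handling genes, and its mutation causes dilated cardiomyopathy in humans. The counts below are per gene. They measure how much transcript of each regulator was present, and show neither the splicing of any target nor the amount of protein.

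The hearts came from C57BL/6 mice at 4 months of age, 8 weeks after transverse aortic constriction (TAC), which narrows the aorta and overloads the left ventricle, or after sham surgery. All 4 groups carried the CIP-KI-flox allele, a CIP transgene at Rosa behind a floxed stop. Control littermates (Ctrl) had that allele alone, and CIP-OE mice also carried aMHC-Mer-Cre-Mer, a Cre recombinase that is driven by a cardiomyocyte promoter and activated by tamoxifen, so that effects of CIP and of active Cre cannot be told apart. In the study tamoxifen was given after TAC, when cardiac remodeling was already established. The transgene was therefore not induced from the start of the overload. Sham surgery (Ctrl-Sham, CIP-OE-Sham) and TAC (Ctrl-TAC, CIP-OE-TAC) were each done on 3 mice per genotype, with 1 library per mouse, and single libraries are named below as in the labels, where KI stands for CIP-OE.

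Mlip, the gene that encodes CIP, was read first as a check of the labels. It had 950, 926 and 1322 normalized counts in Ctrl-Sham and 888, 823 and 936 in Ctrl-TAC hearts. In CIP-OE-Sham hearts it had 5492, 4596 and 1911 (KI_Sham_3737), and in CIP-OE-TAC hearts 5909, 8232 and 5921. All CIP-OE hearts were above all control hearts, KI_Sham_3737 by the smallest margin.

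Each library held 6990445 to 7704812 reads in genes. The Ctrl-TAC libraries stood apart in base composition. In them, genes in the upper quartile of GC content were 0.56 to 0.87 higher against genes in the lower quartile (log2, relative to the mean of all libraries), and in the other 9 libraries this difference ran from -0.53 to 0.020. Mitochondrial transcripts took 33.9 to 43.0% of reads in Ctrl-TAC and 41.9 to 54.0% elsewhere. Across 13238 genes, the log2 fold change correlated with GC content at a Spearman's rho of 0.642 for Ctrl-TAC against Ctrl-Sham and of -0.655 for CIP-OE-TAC against Ctrl-TAC, given as a description since genes share libraries. The cause of this composition was not tested. Where a difference of the 8 regulators changed its sign or call when each library was corrected for GC content, this is stated. For the lists of splicing genes only counts, and not in every comparison, are given with that correction. Marker counts and values of single genes from the lists are given without it. In Ctrl-TAC against Ctrl-Sham, the comparison of the marker counts below, 20.7% of all genes tested were higher and 20.2% lower. The 8 fibroblast markers summed to between 10474 and 16980 in Ctrl-TAC, between 7378 and 13947 in CIP-OE-TAC and between 5570 and 7302 after sham surgery. TAC raised 5 of the 8 and lowered 0 in control hearts. Endothelial markers summed to 5847 to 7215 in Ctrl-TAC and 4453 to 5877 elsewhere, with 6 of 8 higher in Ctrl-TAC than in Ctrl-Sham. Cardiomyocyte markers summed to 213286 to 260064 in Ctrl-TAC and 225179 to 315459 elsewhere, with 2 of 8 higher and 2 lower. Erythroid markers summed to 1303 to 2511 in Ctrl-TAC, 562 to 784 in Ctrl-Sham and 323 to 1583 in the CIP-OE groups, with 2 of 5 higher in Ctrl-TAC than in Ctrl-Sham. Schwann cell markers were low, at 12.2 to 23.4 in Ctrl-TAC and 32.8 to 79.5 elsewhere, and the 1 of 4 tested was lower. Smooth muscle and pericyte markers summed to 5369 to 6366 in Ctrl-TAC, 7146 to 7726 in Ctrl-Sham and 4752 to 6674 in the CIP-OE groups, with 3 of 6 tested higher and 2 lower. Macrophage markers summed to 1296 to 2087 in Ctrl-TAC and 1061 to 2001 elsewhere, with 0 of 8 higher and 2 lower. No marker of these lists was at 0 in all libraries. Their part in the results below was not tested, and in whole heart RNA fewer cells of a type cannot be told apart from less RNA per cell.

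Per kilobase of annotated exon, Rbm24 was the most abundant of the 8 measured regulators, at 378 ± 65.1 normalized counts per kb (SD over the 12 libraries). Rbm20 followed at 191 ± 36.8 and Mbnl2 at 173 ± 31.9, which differed by less than their spread. Rbfox2 had 81.1 ± 9.64, Mbnl1 68.2 ± 7.12, Rbfox1 66.2 ± 24.9 and Ptbp1 52.3 ± 11.0 normalized counts per kb. The ranges of these 4 over the libraries overlapped, but ranges and SDs pool the 4 groups. The order changed with the group, as Rbfox1 had 85.1 and Ptbp1 47.8 in Ctrl-Sham, and 36.4 and 66.9 in Ctrl-TAC. Celf2 was lowest at 29.6 ± 3.33, over 25884 annotated exonic bases that no single transcript contains. For every regulator the divisor was the merged length of its annotated exons, from 3.49 kb for Rbm24 to 25.9 kb for Celf2. The order of levels depends on that divisor. In reads per library Mbnl2 had 1390 to 2561 and Rbm24 981 to 1632.

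In control hearts, TAC lowered 4 of the 8 measured regulators, Rbfox1, Mbnl2, Rbm20 and Rbm24, and raised Ptbp1 (adjusted p under 0.05, limma). Over all 13392 genes tested, 20.2% were lower and 20.7% higher, so 4 of 8 lower and 1 of 8 higher are read against a comparison in which 40.9% of genes passed. The median log2 fold change of the 8 was -0.39, and that of all genes was 0.0022. Without a single library overlapping between the groups were 1 regulator that was higher and 5 that were lower. Of all genes 50.8% did not overlap, 25.2% being higher and 25.5% lower. The calls of Rbfox1, Mbnl2, Rbm20 and Rbm24 held in all 25 alternatives of the processing, those corrected for GC content included.

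Promoter sequences of the regulators that fell together are given here for reference, as the 250 bases before an annotated start in RefSeq (GRCm38.p6). Of the 10 genes, 8 had entries in the promoter table, and Rbm20 and Rbfox2 had none. The windows of Rbm24 (chr13:46418050-46418299, plus strand), of both Rbfox1 starts (chr16:5884543-5884792 and chr16:7069585-7069834, plus strand) and of Mbnl2 (chr14:120275419-120275668, plus strand) hold no annotated exon, and are printed 5′ to 3′.
Rbm24: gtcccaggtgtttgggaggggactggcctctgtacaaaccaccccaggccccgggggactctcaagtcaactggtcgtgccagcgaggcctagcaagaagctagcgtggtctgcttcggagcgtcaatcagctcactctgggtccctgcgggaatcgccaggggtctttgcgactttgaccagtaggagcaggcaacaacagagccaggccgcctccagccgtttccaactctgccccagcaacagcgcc
Rbfox1 upstream start: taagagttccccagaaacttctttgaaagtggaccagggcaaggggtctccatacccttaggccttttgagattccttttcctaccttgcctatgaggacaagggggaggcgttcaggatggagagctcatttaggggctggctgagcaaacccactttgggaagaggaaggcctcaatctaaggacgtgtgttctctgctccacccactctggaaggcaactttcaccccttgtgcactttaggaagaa
Rbfox1 downstream start: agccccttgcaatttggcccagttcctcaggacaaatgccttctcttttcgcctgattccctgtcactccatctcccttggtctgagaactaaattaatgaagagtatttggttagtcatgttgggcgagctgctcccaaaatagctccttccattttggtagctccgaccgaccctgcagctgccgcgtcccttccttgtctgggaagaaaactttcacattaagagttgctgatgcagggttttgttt
Mbnl2: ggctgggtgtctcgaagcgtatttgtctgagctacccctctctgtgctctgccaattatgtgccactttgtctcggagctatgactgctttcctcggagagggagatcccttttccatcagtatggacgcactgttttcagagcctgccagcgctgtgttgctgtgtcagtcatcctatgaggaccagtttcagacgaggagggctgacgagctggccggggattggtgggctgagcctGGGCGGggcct
Capitals mark letters that match any of 4 motifs on either strand. These were AGATAA for GATA factors, CATTCC for TEAD factors, GGGCGG as the box of Sp1-type factors, and TATAAA as the core promoter element. Mbnl2 had a single GGGCGG, whose first letter lies 11 bases before the start, and the Rbm24 and Rbfox1 windows had none of the 4 motifs. Among all 32851 promoters of that table, 9.99% held AGATAA, 12.6% CATTCC, 32.7% GGGCGG and 12.4% TATAAA. GC content was 62.4% in the Rbm24 window, 51.2 and 48.4% in the Rbfox1 windows and 57.2% in the Mbnl2 window.

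Rbm20 (ENSMUSG00000043639, chr19:53677306-53867080, plus strand) represses exons of titin and of other sarcomere and calcium-handling transcripts. Its normalized counts were 1359, 1382 and 1635 in Ctrl-Sham and 841, 978 and 1142 in Ctrl-TAC. In CIP-OE-Sham hearts they were 1404, 1380 and 1723, and in CIP-OE-TAC hearts 1143, 1324 and 1231. Every Ctrl-TAC heart was below every sham heart of either genotype, and the CIP-OE-TAC hearts lay between them, the lowest just above the highest Ctrl-TAC heart. Between Ctrl-Sham and Ctrl-TAC Rbm20 fell by 0.57 on the log2 scale (SE 0.14, adjusted p = 0.00274). The longest transcript of Rbm20 holds 54.9% GC, and with the correction for GC content the difference was -0.96 (adjusted p = 0.000108).

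Rbm24 (ENSMUSG00000038132, chr13:46418434-46431095, plus strand) promotes the inclusion of muscle exons and is required for sarcomere assembly. Ctrl-Sham hearts had 1620, 1492 and 1654 normalized counts, and Ctrl-TAC hearts 984, 994 and 1341. CIP-OE-Sham hearts had 1208, 1223 and 1530, and CIP-OE-TAC hearts 1264, 1413 and 1121. The control groups did not overlap, whereas CIP-OE hearts of either surgery overlapped each other and ran from 1121 to 1530. Rbm24 fell by 0.54 with TAC in control hearts (SE 0.14, adjusted p = 0.00550), and the difference between the CIP-OE groups was -0.058 (adjusted p = 0.928, 95% interval ± 0.30).

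Rbfox1 (ENSMUSG00000008658, chr16:5885355-7411526, plus strand), the Rbfox gene of heart, skeletal muscle and neurons, had the largest difference of the 8. Its counts were 346, 418 and 359 in Ctrl-Sham and 118, 176 and 187 in Ctrl-TAC. In the CIP-OE groups they were 362, 371 and 458 after sham surgery and 245, 282 and 176 after TAC. Both TAC groups lay wholly below both sham groups, and library KI_TAC_3587 was within the Ctrl-TAC range. Group means were 374 ± 38.6, 160 ± 36.8, 397 ± 52.8 and 234 ± 54.0 (SD, n = 3) in the same order. Rbfox1 fell by 1.24 on the log2 scale in control hearts (SE 0.18, adjusted p = 5.47e-05) and was -0.93 with the GC correction.

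Rbfox2 (ENSMUSG00000033565, chr15:77078990-77307004, minus strand), its relative that most tissues express, showed no call in any comparison. Counts were 593, 643 and 617 in Ctrl-Sham, 497, 667 and 608 in Ctrl-TAC, 725, 684 and 803 in CIP-OE-Sham and 733, 663 and 690 in CIP-OE-TAC. The control groups overlapped, and each CIP-OE-Sham heart was above each Ctrl-Sham heart. For TAC in control hearts the log2 difference was -0.075 (95% interval ± 0.26, adjusted p = 0.666). Its levels per kb were close to those of Rbfox1 in sham hearts, at 75.9 against 85.1 in Ctrl-Sham, and above them in Ctrl-TAC, at 72.5 against 36.4.

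**Figure D1:**
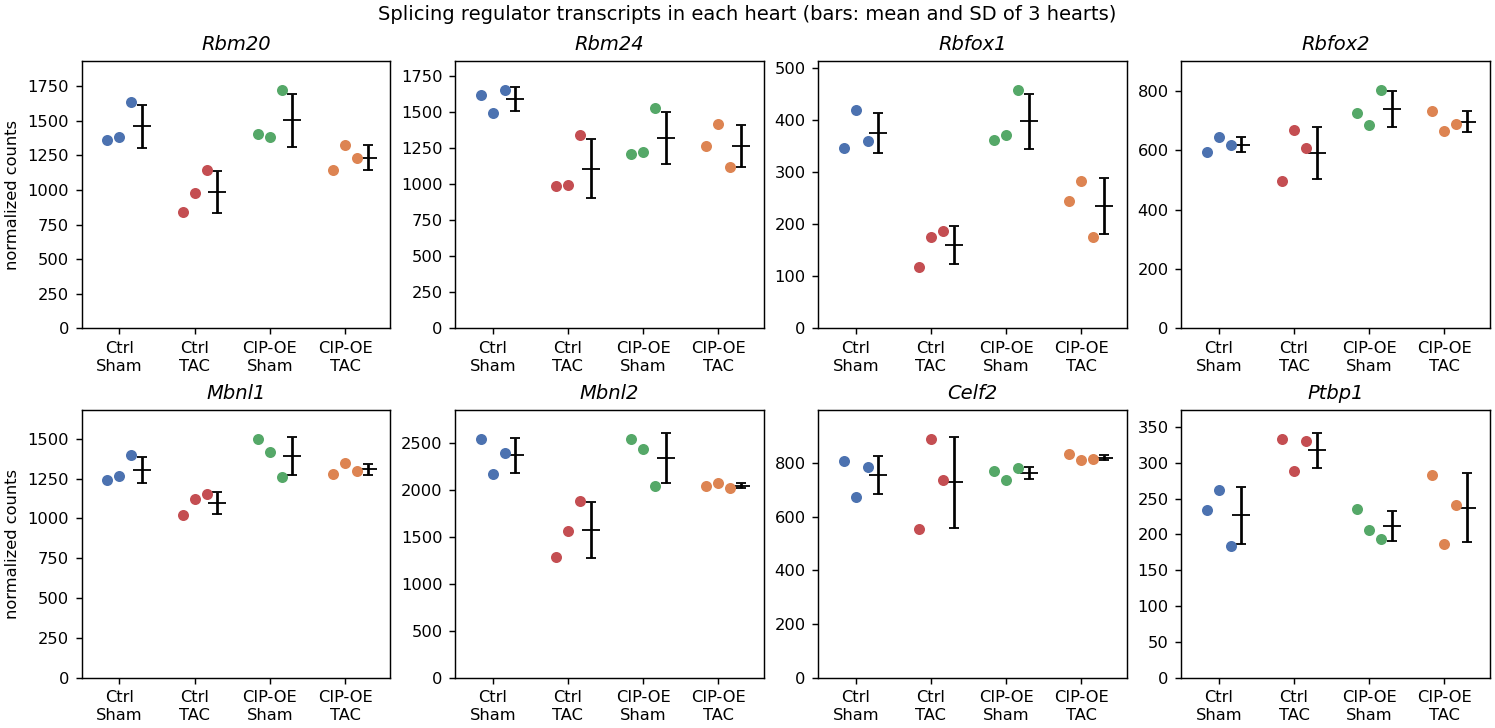
Normalized counts (y axis, from 0) of the 8 measured splicing regulators in each of the 12 hearts, by group, with the mean and SD of 3 hearts beside the points. Rbfox1 lies at 118 to 187 in Ctrl-TAC and 346 to 418 in Ctrl-Sham hearts, and Ptbp1 is the regulator whose Ctrl-TAC hearts (289 to 333) are all above the Ctrl-Sham hearts (183 to 262).

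Mbnl2 (ENSMUSG00000022139, chr14:120275669-120431697, plus strand) is a muscleblind protein, a class that binds YGCY elements and favours adult isoforms. Normalized counts were 2543, 2170 and 2390 in Ctrl-Sham and 1284, 1556 and 1878 in Ctrl-TAC. CIP-OE-Sham hearts had 2539, 2438 and 2036, and CIP-OE-TAC hearts 2045, 2075 and 2015. Ctrl-TAC was below every heart of the other groups, and the CIP-OE-TAC hearts had a narrow spread (SD 30.1). Mbnl2 fell by 0.60 with TAC in control hearts (SE 0.14, adjusted p = 0.00182). Gm26679 on the other strand, with 32.2 counts on average, shares exonic sequence with Mbnl2, and genes on the other strand with at most 13.9 and 22.2 counts do so with Celf2 and Ptbp1. Reads of such pairs cannot be told apart if the counting ignored strand, a setting not given in the sources used here.

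Mbnl1 (ENSMUSG00000027763, chr3:60472830-60629750, plus strand), whose sequestration by repeat RNA underlies myotonic dystrophy, did not pass. Its counts were 1244, 1265 and 1396 in Ctrl-Sham, 1021, 1121 and 1155 in Ctrl-TAC, 1500, 1417 and 1261 in CIP-OE-Sham and 1280, 1347 and 1300 in CIP-OE-TAC. The Ctrl-TAC hearts were below all others. The difference was -0.24 on the log2 scale (SE 0.12, adjusted p = 0.0998). Mbnl1 is the most AT-rich of the 8 (39.7% GC), and with the GC correction it turned to 0.33 and was called higher (adjusted p = 0.0254), so no direction can be given for it.

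Celf2 (ENSMUSG00000002107, chr2:6539694-7509563, minus strand) is the CELF protein that, with Celf1, favours fetal splice patterns. Counts were 808, 676 and 785 in Ctrl-Sham, 555, 891 and 739 in Ctrl-TAC, 770, 740 and 781 in CIP-OE-Sham and 833, 813 and 818 in CIP-OE-TAC. Libraries Ctrl_TAC_3586 and Ctrl_TAC_3800 held the lowest and the highest value of all 12 hearts, and the control groups overlapped. The difference was -0.076 (95% interval ± 0.30, adjusted p = 0.699). Like Mbnl1 it is AT-rich (42.1% GC), and the GC correction gave 0.39 with a call (adjusted p = 0.0357). Celf1 (chr2:90940382-91019497, plus strand) had no value, so the balance of Mbnl1 and Celf1 could not be computed.

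Ptbp1 (ENSMUSG00000006498, chr10:79854427-79864771, plus strand), a polypyrimidine tract-binding protein that represses muscle and neuronal exons, went the other way. Counts were 234, 262 and 183 in Ctrl-Sham and 333, 289 and 330 in Ctrl-TAC. CIP-OE-Sham hearts had 235, 205 and 194, and CIP-OE-TAC hearts 283, 187 and 242. All Ctrl-TAC hearts were above all others. Ptbp1 rose by 0.50 in control hearts (SE 0.16, adjusted p = 0.0185), but not after the GC correction (0.19, adjusted p = 0.395), without Ctrl_Sham_4033 (0.35, adjusted p = 0.116) or without Ctrl_TAC_3586 (0.46, adjusted p = 0.0513). Srsf1 (chr11:88047373-88053755, plus strand), an SR protein that promotes exon inclusion and is required for the postnatal splicing of Camk2d in mouse heart, had no value.

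CIP-OE and control hearts were then compared after TAC. Rbfox1 was the regulator called higher in CIP-OE-TAC than in Ctrl-TAC, 1 of 8 where 9.11% of all genes were higher, and 0 of 8 were called lower against 9.27% of all genes (18.4% in either direction). The log2 difference of Rbfox1 was 0.55 (SE 0.18, adjusted p = 0.0460) between group means of 234 ± 54.0 and 160 ± 36.8, and the groups overlapped. This call stood at the threshold. It was kept in 13 of 25 alternatives and was lost with the GC correction (0.32, adjusted p = 0.381). Leaving out Ctrl_TAC_3586 gave 0.34 (adjusted p = 0.211), KI_TAC_3579 0.40 (adjusted p = 0.203) and KI_TAC_3577 0.50 (adjusted p = 0.125). Leaving out any Ctrl-Sham mouse, or KI_Sham_3643 or KI_Sham_3644, left the difference at 0.55 and moved the adjusted p to between 0.0543 and 0.0591.

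For the other 7 regulators the same comparison gave no call with limma at the settings used throughout. Mbnl2 was 0.40 higher (adjusted p = 0.0512), Rbm20 0.33 (adjusted p = 0.0994), Mbnl1 0.25 (adjusted p = 0.135), Rbfox2 0.24 (adjusted p = 0.184), Rbm24 0.20 (adjusted p = 0.333) and Celf2 0.20 (adjusted p = 0.349) on the log2 scale, and Ptbp1 was at -0.44 (adjusted p = 0.0631). The unadjusted p of Ptbp1, 0.0133, made it the 1 regulator on the lower side below 0.05, and edgeR and DESeq2 called 0 lower as well. On the higher side DESeq2 called Mbnl2 too (0.37, adjusted p = 0.0471), and edgeR did not (0.38, adjusted p = 0.0619). With a filter of at least 50, Mbnl2 was called (0.40, adjusted p = 0.0447). With totals that omit mitochondrial transcripts and the top 20 genes, Mbnl2 (0.44, adjusted p = 0.0210) and Rbm20 (0.37, adjusted p = 0.0435) were called. Rbm20, Mbnl1 and Mbnl2 were higher and Ptbp1 lower in every CIP-OE-TAC heart than in every Ctrl-TAC heart. These were 4 of 8, where 36.1% of all genes did not overlap (18.4% higher and 17.7% lower). Without Ctrl_TAC_4231, Mbnl2 (0.53, adjusted p = 0.00935) and Rbm20 (0.44, adjusted p = 0.0321) were called too. Without KI_Sham_3737 Mbnl2 was called (0.40, adjusted p = 0.0462), and without KI_TAC_3577 Ptbp1 (-0.57, adjusted p = 0.0357). With the GC correction Rbm20 passed (0.61, adjusted p = 0.0192), and Mbnl1 and Celf2 changed sign, to -0.17 and -0.14. The median of the 8 was 0.25, beside 0.0067 for all genes, and this comparison shares its Ctrl-TAC libraries with that of TAC in control hearts.

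**Figure D2:**
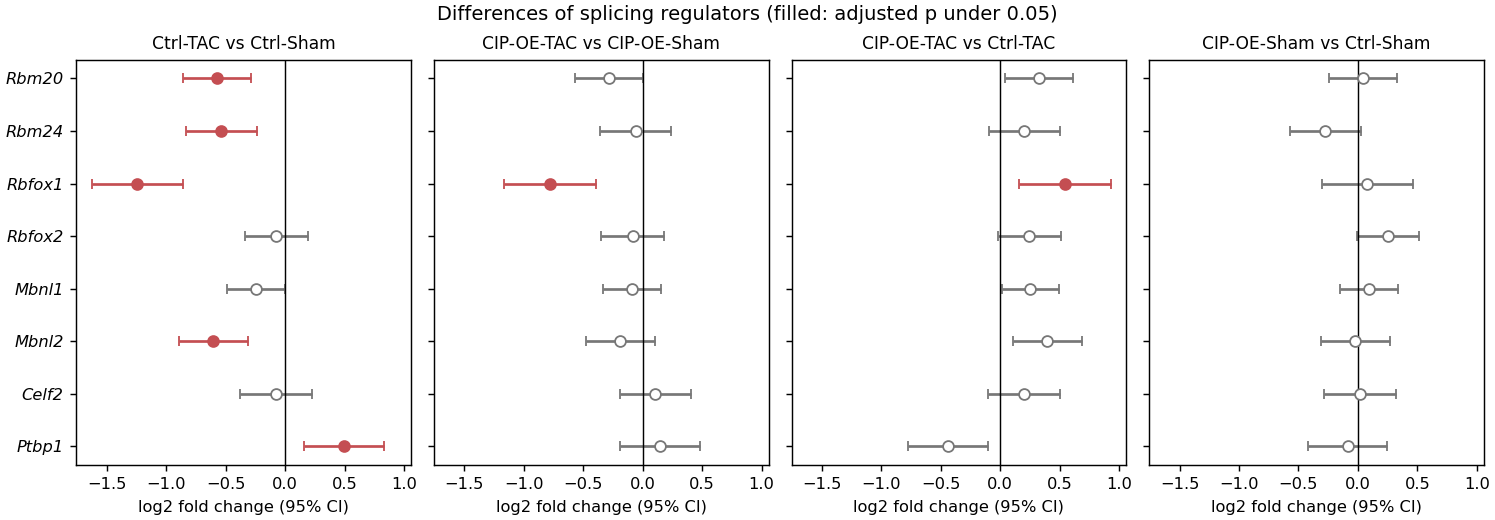
Log2 fold changes (x axis, with 95% intervals from limma) of the 8 regulators in 4 comparisons, filled where the adjusted p over all genes is under 0.05. In Ctrl-TAC against Ctrl-Sham 4 are called lower and Ptbp1 higher, in each of the TAC comparisons that involve CIP-OE only Rbfox1 is called, and after sham surgery none is.

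In CIP-OE hearts, TAC lowered Rbfox1, by 0.78 on the log2 scale (SE 0.18, adjusted p = 0.0450), from 397 ± 52.8 to 234 ± 54.0. It was 1 of 8 called lower where 0.508% of all genes were, and 0 of 8 were called higher (0.754% of all genes, and 1.26% in either direction), by edgeR, DESeq2 and unadjusted p under 0.05 as well. Every CIP-OE-TAC heart was below every CIP-OE-Sham heart for Rbfox1 and Rbm20, and above for Celf2. Of all genes 18.8% did not overlap, 9.14% being lower and 9.62% higher. The other 7 gave between -0.28 for Rbm20 (adjusted p = 0.408) and 0.15 for Ptbp1 (adjusted p = 0.801). The call of Rbfox1 was near the threshold here too. Leaving out KI_Sham_3643, KI_Sham_3644 or KI_Sham_3737 gave -0.84, -0.82 and -0.67 (adjusted p = 0.105, 0.0873 and 0.170), and leaving out KI_TAC_3577 or KI_TAC_3587 gave -0.82 and -0.58 (adjusted p = 0.126 and 0.240). Without Ctrl_Sham_4010, Ctrl_Sham_4011 or Ctrl_Sham_4033 the adjusted p was 0.0659, 0.0582 and 0.0545 at the same difference. The GC correction kept the call.

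After sham surgery 0 of 8 regulators differed between CIP-OE and control hearts by limma, edgeR or DESeq2, and 0 had an unadjusted p under 0.05, where 0.0149% of all genes were called higher and 0.00747% lower (0.0224% in either direction). Log2 differences ran from -0.27 for Rbm24 (95% interval ± 0.30, adjusted p = 0.485) to 0.25 for Rbfox2 (95% interval ± 0.26, adjusted p = 0.467). KI_Sham_3737 was the CIP-OE heart with the least Mlip. Without it 0 of 8 were called, and the differences ran from -0.38 for Rbm24 to 0.19 for Rbfox2. Rbfox2 was the 1 regulator whose groups did not overlap, where 17.8% of all genes did not (8.82% higher and 8.95% lower).

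Whether the response to TAC differed between the genotypes was tested with the interaction term. It called 0 of 8 regulators by limma, edgeR or DESeq2, where 5.43% of all genes were called higher and 6.18% lower. Rbm24 (0.48, unadjusted p = 0.0279, adjusted p = 0.121) and Mbnl2 (0.42, unadjusted p = 0.0452, adjusted p = 0.162) were the 2 with an unadjusted p under 0.05. Without Ctrl_TAC_4231 both were called, at 0.62 (adjusted p = 0.0311) and 0.55 (adjusted p = 0.0437). For Rbfox1 the term was 0.46 (95% interval ± 0.55, adjusted p = 0.241), so its differences of -1.24 in control hearts and -0.78 in CIP-OE hearts were not shown to differ.

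Ratios of 2 regulators within a heart do not depend on the scaling of its library, and are given without a test. Rbfox1 to Rbfox2 was 0.583, 0.650 and 0.582 in Ctrl-Sham, 0.238, 0.264 and 0.307 in Ctrl-TAC, 0.499, 0.542 and 0.570 in CIP-OE-Sham and 0.334, 0.426 and 0.255 in CIP-OE-TAC. All 6 TAC hearts were below all 6 sham hearts. Rbm20 to Ptbp1 was 5.80, 5.28 and 8.91 in Ctrl-Sham, 2.52, 3.39 and 3.46 in Ctrl-TAC, 5.97, 6.72 and 8.88 in CIP-OE-Sham and 4.04, 7.10 and 5.10 in CIP-OE-TAC, so that Ctrl-TAC was below the other 3 groups without overlap. Mbnl1 to Mbnl2 was 0.489 to 0.584 in Ctrl-Sham and 0.615 to 0.795 in Ctrl-TAC, with CIP-OE-Sham at 0.581 to 0.619 and CIP-OE-TAC at 0.626 to 0.649. The 2 genes of each pair differ in GC content, by most for Mbnl1 and Mbnl2 (39.7 and 49.3%).

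**Figure D3:**
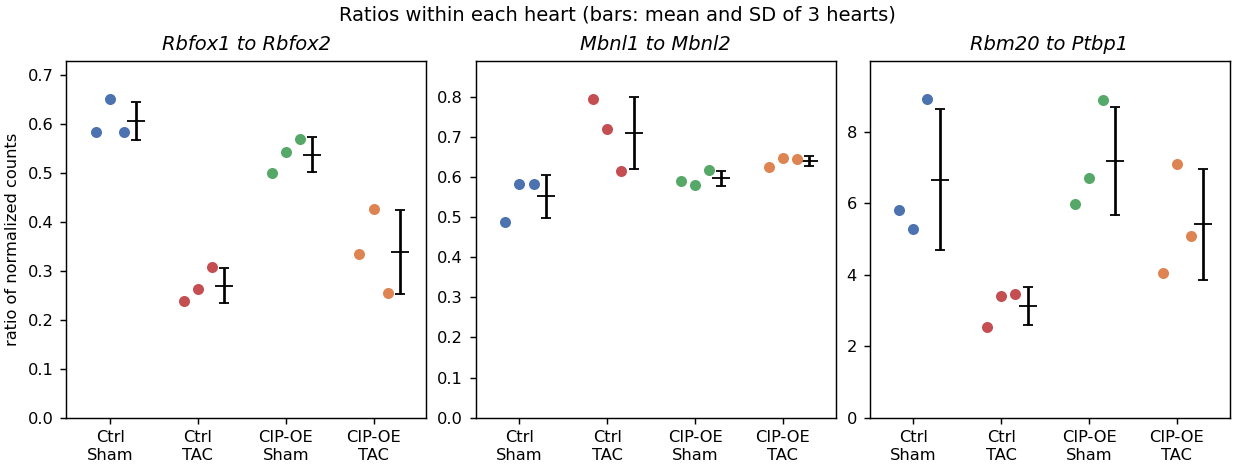
Ratios of normalized counts (y axis, from 0) of Rbfox1 to Rbfox2, Mbnl1 to Mbnl2 and Rbm20 to Ptbp1 in each heart by group, with the mean and SD of 3 hearts. Rbfox1 to Rbfox2 averages 0.605 in Ctrl-Sham and 0.270 in Ctrl-TAC, and Rbm20 to Ptbp1 6.67 and 3.13.

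The 8 regulators were set beside other splicing genes, in lists described by counts. Of 9 paralogs of the 10 genes 3 were expressed enough to test. All 3 were called in Ctrl-TAC against Ctrl-Sham, where 40.9% of all genes were called. Rbm38, the paralog of Rbm24, was 0.77 higher (adjusted p = 0.00167), and Ptbp2 and Ptbp3, paralogs of Ptbp1, were at -0.59 (adjusted p = 0.00448) and -0.46 (adjusted p = 0.0180), each opposite in direction to its relative. In CIP-OE-TAC against Ctrl-TAC, where 18.4% of all genes were called, Rbm38 was at -0.83 (adjusted p = 0.00402) and Ptbp2 at 0.70 (adjusted p = 0.00512). With the GC correction 0 of the 3 were called in either comparison.

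With TAC in control hearts 20.7% of all genes were higher and 20.2% lower. Among SR and SR-like proteins, which bind exonic enhancers, 0 of 11 tested were higher and 6 lower there, with a median of -0.40. The 6 included Srsf10 (-0.75, adjusted p = 0.00510) and Srsf11 (-0.48, adjusted p = 0.00493). In CIP-OE-TAC against Ctrl-TAC 4 of 11 were higher, where 9.11% of all genes were higher. Of 9 SR protein kinases, Clk2 rose (0.54, adjusted p = 0.0106) and 4 fell, among them Clk1 (-0.64, adjusted p = 0.000421) and Prpf4b (-0.52, adjusted p = 0.00192). Of 23 hnRNP proteins, which mostly repress exons, 2 rose and 11 fell, with a median of -0.37. Hnrnph2 (-0.95, adjusted p = 5.58e-05) and Hnrnpa2b1 (-0.79, adjusted p = 4.58e-05) fell and Pcbp1 rose (0.66, adjusted p = 0.00130). Of 21 other alternative splicing regulators, 1 rose, Nova2 (0.99, adjusted p = 0.000481), and 10 fell, among them Matr3 (-1.04, adjusted p = 2.05e-05) and Khdrbs3 (-0.74, adjusted p = 0.000178). In the core spliceosome 6 of 30 genes were higher, Sf3a2 first (1.36, adjusted p = 3.32e-06), and 6 lower, Snrpb2 first (-0.86, adjusted p = 0.00104), with a median of 0.020. Both of these counts were near the shares of all genes.

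After the GC correction TAC raised 1361 and lowered 1383 of 13238 genes in control hearts, and the counts of these lists were smaller too. SR proteins and SR protein kinases then had 0 called in either direction, hnRNP proteins 7 lower and 0 higher, the other regulators 3 lower and 1 higher, and the core spliceosome 2 lower and 4 higher in that comparison. In CIP-OE-TAC against Ctrl-TAC, 9 of 23 hnRNP proteins were higher and 1 lower, where 9.11% of all genes were higher and 9.27% lower. After the correction 2 of the 23 were higher and 0 lower, where 192 of all genes were higher and 250 lower. Rbfox1, Mbnl2, Rbm20 and Rbm24 kept their calls in control hearts with that correction.

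**Figure D4:**
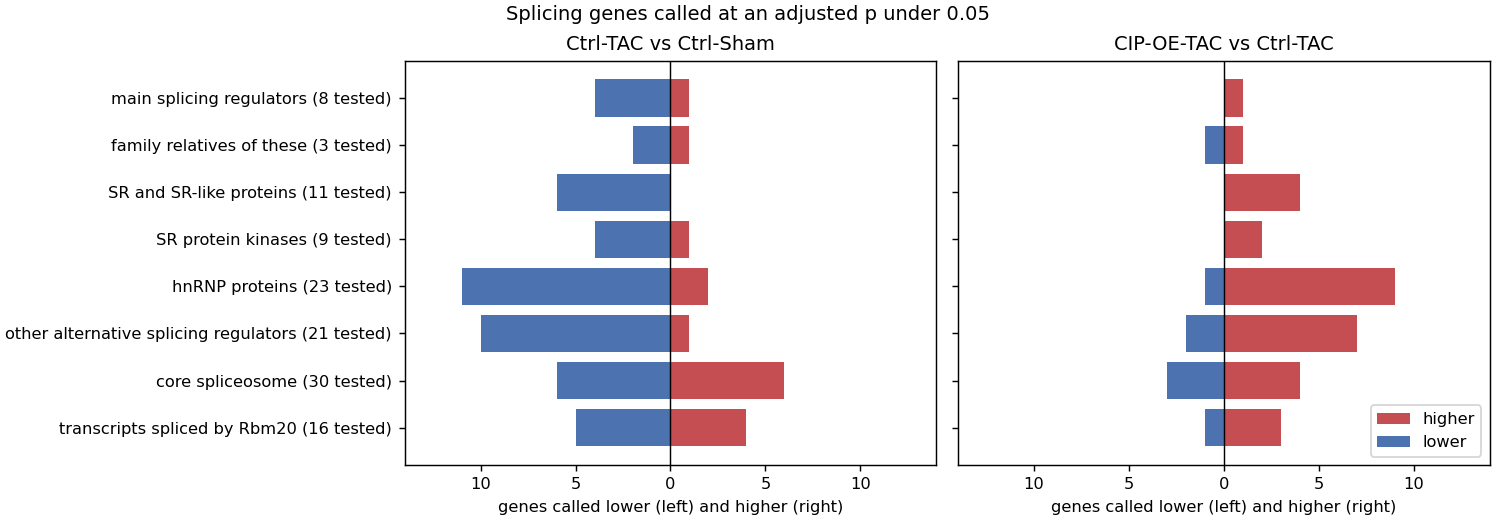
Number of genes called lower (left) and higher (right) at an adjusted p under 0.05 in lists of splicing genes, for Ctrl-TAC against Ctrl-Sham and CIP-OE-TAC against Ctrl-TAC, before any GC correction. Of 23 hnRNP proteins 11 are lower and 2 higher in the first comparison, and 9 higher and 1 lower in the second. Over all genes 20.2% are lower and 20.7% higher in the first, and 9.11% higher and 9.27% lower in the second.

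Transcripts that RBM20 is known to splice were measured as whole genes. Of 16, 4 rose and 5 fell in Ctrl-TAC against Ctrl-Sham, with a median of 0.00066, where 20.7% of all genes were higher and 20.2% lower. Enah, an actin regulator, rose by 1.47 (adjusted p = 1.58e-06) and Rtn4 by 0.59 (adjusted p = 0.0206), whereas Trdn, triadin of the calcium release complex, fell by 1.13 (adjusted p = 1.58e-06) and Lmo7 by 0.75 (adjusted p = 6.57e-05). In CIP-OE-TAC against Ctrl-TAC, 9.11% of all genes were higher and 9.27% lower. There Nexn (0.79, adjusted p = 0.00137) and Trdn (0.63, adjusted p = 0.00219) were among 3 of the 16 that were higher, and Enah was the 1 lower (-0.65, adjusted p = 0.00904). The counts were 3 and 3, and 0 and 2, with the GC correction.

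**Figure D5:**
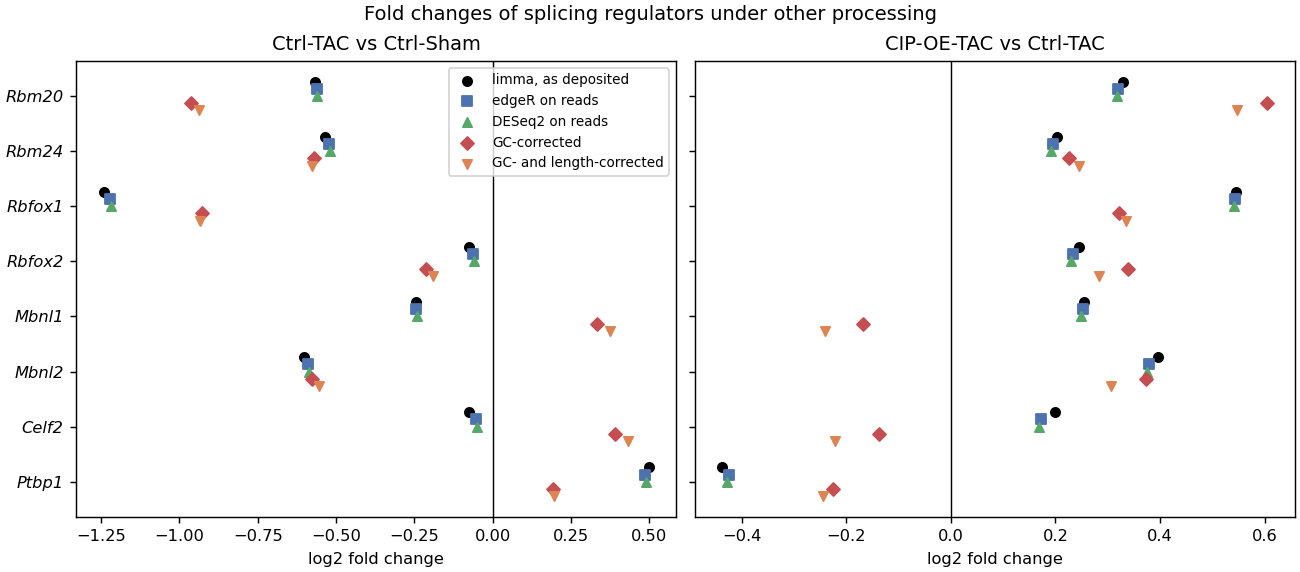
Log2 fold changes (x axis) of the 8 regulators as deposited and under 4 other treatments of the data, for Ctrl-TAC against Ctrl-Sham and CIP-OE-TAC against Ctrl-TAC. Tests on reads lie on the values as deposited, whereas the GC correction moves Rbm20 from -0.57 to -0.96 and turns Mbnl1 from -0.24 to 0.33 and Celf2 from -0.076 to 0.39 in the first comparison.

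Genes with the most similar profile over the 12 libraries were looked up for Rbfox1 and Rbm20, the regulators whose group means spanned the widest range (1.32 and 0.61 on the log2 scale). Likeness was the root mean square difference of centred log2 values among 8343 genes. Nearest to Rbfox1 were Kcnd2, a potassium channel of the transient outward current (0.129), Dglucy (0.150), Paqr9 (0.170), Abcc9, the sulfonylurea receptor of the cardiac ATP-sensitive potassium channel (0.177), and Fgf13, a modulator of sodium channels (0.183), where the profile of Rbfox1 itself deviated by 0.586. Among the nearest to Rbm20, which deviated by 0.279, were Herc3 (0.0905), Sspn, sarcospan of the dystrophin complex (0.0923), Cs, citrate synthase (0.104), and Hars2 (0.109).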

How the data were processed

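Heart RNA of 12 mice in 4 groups of 3 was analysed as 1 table of values per gene and library. The deposited unit is a scaled signal, read counts over a library factor (0.810 to 1.23), from which whole reads were recovered within a tolerance of 0.001 for 100% of the values of each library. Alignment is given as STAR with featureCounts to mm10 in the study's methods, and as HISAT2 2.0.4 with StringTie 2.1.4 to GRCm38 in the submitters' processing notes, which scaled by DESeq2 1.4.5, and neither gives the annotation or the strand setting. From 54515 rows, 633 exact duplicates were removed. Coordinates, exon lengths and the GC content of the longest transcript of each gene came from GENCODE M21 (GRCm38), which may not be the authors' annotation.

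Values were tested as log2(value + 1) with limma 3.58.1 (R 4.3.3, robust, with a trend) in 1 fit of all libraries, keeping the 13392 genes that reached 10 in 3 or more libraries. Calls required an adjusted p (Benjamini-Hochberg over these genes) under 0.05, and fold changes are on that log2 scale. Each regulator is named in every comparison, and in each list of splicing genes up to 2 called genes a direction with the smallest p. Of the genes with the profiles most like Rbfox1 and Rbm20, 1 is not reported here. The alternatives were other pseudocounts, filters, scalings and fits, edgeR 4.0.16 and DESeq2 1.42.0 on the recovered reads, a loess correction of each library for GC content alone and with exon length, and leaving out each library. The regulators and lists were chosen with earlier results of these data known. The 8 measured regulators had 128 to 2561 recovered reads per library, which sets their counting error.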

Additional observations from a re-analysis of the deposited data

How the results depend on the processing

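The calls of Rbfox1, Mbnl2, Rbm20 and Rbm24 as lower with TAC in control hearts held in all 25 alternatives. For Ctrl-TAC against Ctrl-Sham, the 1 regulator called higher, Ptbp1, was lost without a trend in limma, which left 0. It was also lost with the GC correction and with the GC and length correction. In both of these Celf2 and Mbnl1 were called higher instead, so the count was 2. Requiring a fold change over 1.5 as well was an alternative chosen after seeing the data. It left 0 higher and 2 lower of the 4, where 2254 of all 13392 genes were higher and 1837 lower. For CIP-OE-TAC against Ctrl-TAC, the 1 called higher became 0 with that fold, where 646 of all 13392 genes were higher. It became 0 without a trend (771 of all genes) and 0 in a fit of the compared groups only (796). A filter of at least 50 gave 2 (1237 of 9394 genes), and DESeq2 gave 2 (1114 of 13392). Totals that omit mitochondrial transcripts and the top 20 genes gave 3 (1605). With either GC correction the count stayed at 1, but the gene called was Rbm20 and not Rbfox1. For CIP-OE-TAC against CIP-OE-Sham, the 1 called lower became 0 without a trend. Leaving out 1 library gave 0 to 1 higher and 4 to 4 lower for TAC in control hearts, 0 to 3 higher and 0 to 1 lower for genotype after TAC, 0 to 1 lower for TAC in CIP-OE hearts, 0 to 2 higher for the interaction, and 0 for the rest. No paired analysis was possible, because each library came from a different mouse and the labels do not give the litters.

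Directions turned with the GC correction, and with the GC and length correction, for Celf2 (0.39 and 0.43) and Mbnl1 (0.33 and 0.37) with TAC in control hearts, for Celf2 (-0.14 and -0.22) and Mbnl1 (-0.17 and -0.24) in genotype after TAC, for Rbm20 after sham (-0.052 and -0.094), and in the interaction for Celf2 (-0.27 and -0.28), Mbnl1 (-0.39 and -0.42) and Rbfox2 (0.12 and 0.11). The Rbfox2 interaction was 0.049 with those totals. None of these had been called. Leaving out 1 library turned other differences near 0. The ranges were -0.24 to 0.11 for Celf2 and -0.17 to 0.044 for Rbfox2 with TAC in control hearts. After sham surgery they were -0.061 to 0.068 for Celf2, -0.084 to 0.075 for Mbnl2, -0.23 to 0.024 for Ptbp1, -0.026 to 0.16 for Rbfox1 and -0.063 to 0.12 for Rbm20. For Rbm24 with TAC in CIP-OE hearts the range was -0.14 to 0.053, and in the interaction it was -0.13 to 0.084 for Rbfox2 and -0.00068 to 0.34 for Celf2.

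Over all genes, 2776 were higher and 2701 lower with TAC in control hearts, and 1361 and 1383 with the GC correction (1411 and 1448 with length). For genotype after TAC, 1220 and 1242 became 192 and 250 (227 and 272), 1605 and 1057 with the totals above, 771 and 889 without a trend and 796 and 1069 in the compared groups only. For the interaction, 727 and 828 became 45 and 70 (56 and 84), 1040 and 665 with those totals and 301 and 404 without a trend. For TAC in CIP-OE hearts, 101 and 68 became 9 and 2 without a trend, 181 and 132 in the compared groups only, 206 and 149 with DESeq2 and 120 and 110 with GC and length. After sham surgery, 2 and 1 became 39 and 27 with DESeq2, 29 and 28 in the compared groups only and 4 and 6 without a filter. The cause of these shifts was not tested.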
